A study of Mus musculus with 7 samples.

Results

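The insulin-like growth factor (IGF) axis was described in C2C12 muscle cells that had been incubated with exosomes from palmitate-treated cells. The genes were chosen by name: the ligands Igf1 and Igf2, the receptors Igf1r and Igf2r, and the binding proteins Igfbp2, Igfbp3, Igfbp4, Igfbp5, Igfbp6 and Igfbp7. All 10 genes, of 30919 gene names in its annotation, are on the array, with 15 of its 39429 probes, and 14 of these were among the 21587 probes tested. C2C12 is a mouse myoblast line that fuses into myotubes when serum is lowered. Donor myotubes of this line received 0.5 mM palmitate, a saturated fatty acid carried by bovine serum albumin (BSA), or BSA alone, and their exosomes were taken from the medium 9 h after the palmitate was withdrawn. Recipient C2C12 cells were then kept for 24 h in serum-free medium with either kind of exosome, and 100 ng of their RNA was labelled for each 1-colour Agilent array. The groups were EXO-Post BSA (4 arrays, exosomes from BSA-treated cells, EXO-BSA in the labels) and EXO-Post Palm (3 arrays, exosomes from palmitate-treated cells, EXO-palm in the labels). All recipients received exosomes. The cell line label runs from C2C12 to C2C18 over the arrays, and C2C12 was taken for all of them, as the series' design text names no other line. No array of cells without exosomes was analysed here, so all values compare EXO-Post Palm with EXO-Post BSA. The labels call the arrays biological replicates without saying which cultures they came from, and the p-values measure the spread between these arrays.

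IGF1 and IGF2 are small secreted proteins related to insulin. Both act through the receptor tyrosine kinase IGF1R, which signals through insulin receptor substrates to Akt and MAP kinases, whereas IGF2R binds IGF2 and carries it to lysosomes without such signalling. The IGF-binding proteins hold the ligands outside the cell and can keep them from, or deliver them to, the receptor. In muscle cells this axis is known to drive both myoblast proliferation and fusion, and differentiating C2C12 cells are known to make IGF2 and IGFBP5 themselves.

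Each value below is log2 of a probe's processed signal minus log2 of the 75th percentile of its array, so that 0 is a signal equal to that percentile. A fold change is the EXO-Post Palm mean minus the EXO-Post BSA mean on this scale, and a probe was called when the Benjamini-Hochberg adjusted p of limma, over all tested probes, was under 0.05. The 75th percentile of the processed signal ran from 549 to 1621, the share of probes well above background from 48.5 to 70.3%, and no spot was saturated. The number of arrays limits the precision. EXO-Post BSA replicates 1 and 2 and EXO-Post Palm replicate 1 lay on slide 1, and EXO-Post BSA replicate 4 and EXO-Post Palm replicate 3 on slide 3. EXO-Post BSA replicate 3 and EXO-Post Palm replicate 2 each lay alone on a slide. All 10 myotube markers were well above background on all 7 arrays and none was called (median fold change -0.11, 3 of 10 higher, summed linear level 613 to 813 times the percentile with EXO-Post BSA and 603 to 709 with EXO-Post Palm). The labels name the cell type as myoblast, whereas the paper describes the recipients as myotubes. Of 10 proliferating myoblast markers 9 were tested, and 7 of those were higher with EXO-Post Palm (median 1.50). The cell-cycle genes Mki67 (2.12), Top2a (2.36) and Ccnb1 (2.76) were called. Ccna2 (1.50) and Cdk1 (2.44), also of the cell cycle, were not called. The other tested genes of the list were Myod1 (0.03), Pax7 (-0.21), Id1 (-0.02) and Id3 (0.35), and none of them was called. Over all tested probes 0.533% were called in either direction and 52.7% were lower with EXO-Post Palm. With so low a share called, the lack of calls among the 10 myotube markers says little about them. Myf5 was well above background on 0 arrays, and the summed level of the list was 9.40 to 11.5 with EXO-Post BSA and 16.8 to 27.9 with EXO-Post Palm, without overlap. The part of these cycling genes in the differences described here was not tested. In the RNA of a whole culture, fewer cells of a kind and less RNA per cell cannot be told apart.

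With EXO-Post Palm, the binding protein Igfbp3 was called lower, as was the ligand Igf1 at 1 of its 5 probes, and neither receptor passed the test. Igfbp3 was lower, with a 4.15-fold difference of the means, although only 2 of 3 EXO-Post Palm arrays were well above background there. Its log2 fold change of -2.05 was -1.24 with normexp and quantile normalisation. Igf1 was 2.42-fold lower at 1 probe that passed and 2.39-fold lower at an overlapping probe that just missed the threshold, and its 3 other probes did not pass. The Igf1 call was lost in 17 of 23 alternatives. The mean of Igf2 was 2.25-fold lower and that of Igfbp4 2.99-fold higher, neither passing. Of the 14 probes tested 2 were called, both lower with EXO-Post Palm, where 0.533% of all tested probes were called in either direction and 0.0695% were called lower. Igfbp3, 1 of these 2, entered the test only through its EXO-Post BSA values, the group where it was higher. The median fold change was -0.76 over the 14 probes and -0.02 over all tested probes, and 11 of the 14 were lower, against 52.7% of all tested probes. At 7 of the 14, Igfbp3 among them, all EXO-Post Palm arrays lay below all EXO-Post BSA arrays, as at 5.87% of all tested probes, and at 0 of 14 all lay above. Probes of 1 gene are not independent, since Igf1 holds 5 and Igfbp2 holds 2 of these 14.

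**Figure D1:**
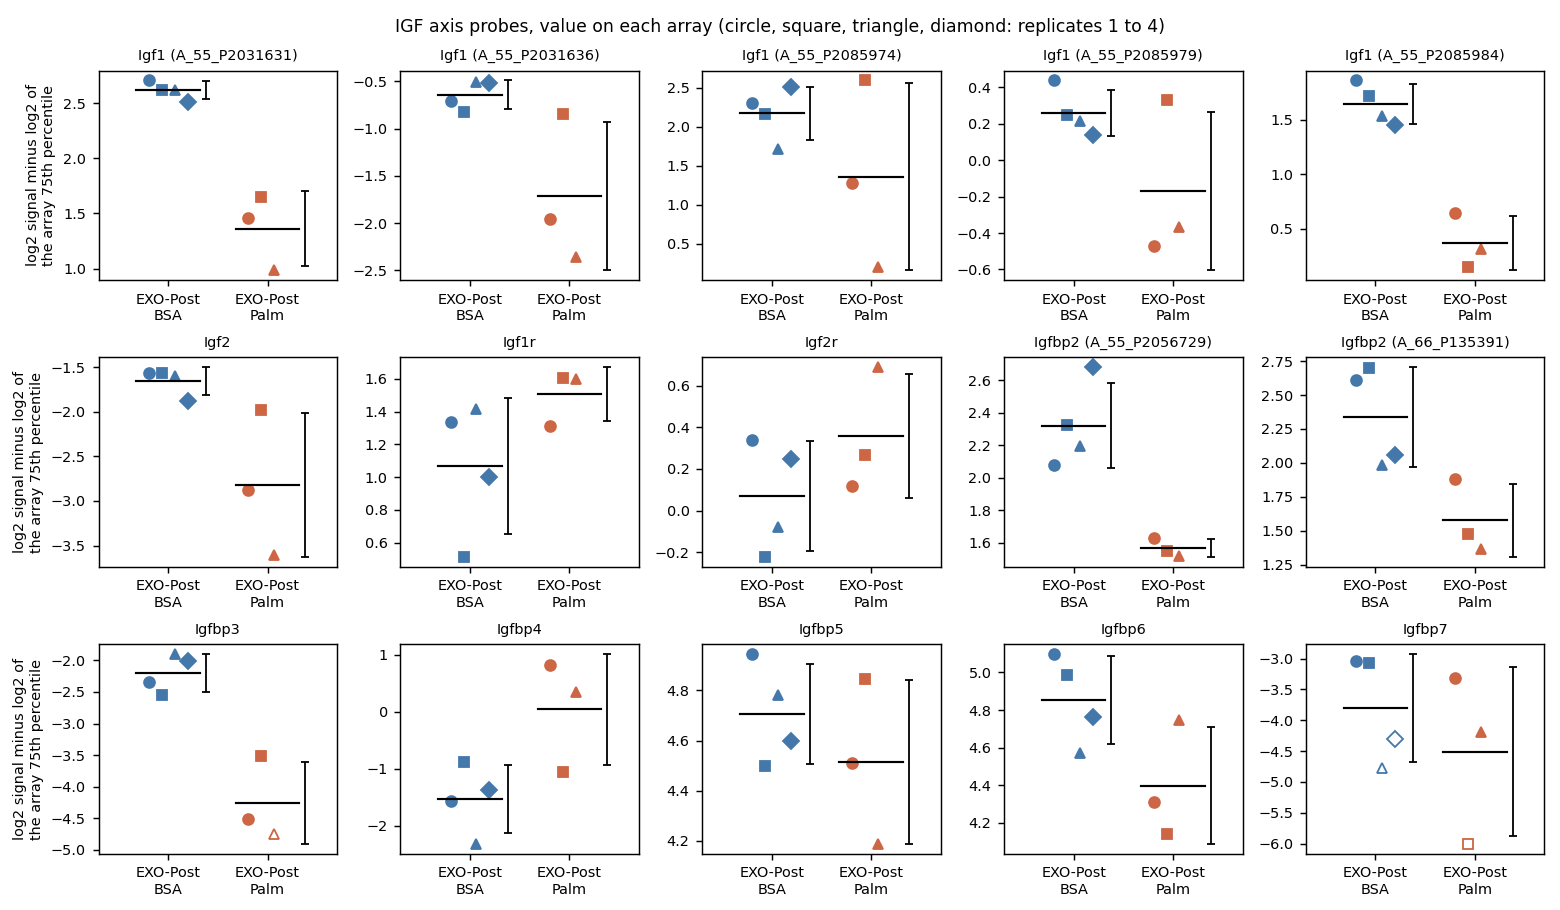
Normalised log2 signal (y axis, log2 of the processed signal minus log2 of the array's 75th percentile) of the 15 IGF axis probes on each array, 1 panel a probe, with the group mean as a line and the SD as a bar beside it; open symbols were not well above background. The 3 EXO-Post Palm arrays lie below all 4 EXO-Post BSA arrays for Igfbp3, Igf2, both Igfbp2 probes and 3 of the 5 Igf1 probes, and the y axes differ between panels.

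Igf1, the ligand made by liver and by muscle itself, is read by 5 probes. The arrays' design places 4 of them on the transcript NM_010512, at bases 889, 909, 3252 and 6909, and the fifth on NM_184052 at base 1027. Whether these bases are coding or untranslated is not given in the sources used here. The first 30 of the 60 bases of each probe are shown because the probes did not move alike. The capitals mark bases within the 40 that the probes at bases 889 and 909 share, so these probes read nearly the same stretch of RNA and are not separate evidence. Their places on mm9, forward strand, are chr10:87393561-87393590 for A_55_P2085984, chr10:87393581-87393610 for A_55_P2031631, chr10:87395924-87395953 for A_55_P2031636, chr10:87399581-87399610 for A_55_P2085974 and chr10:87378456-87378485 for A_55_P2085979.
A_55_P2085984: cctaccaaataacaataataAGTCCAATAA
A_55_P2031631: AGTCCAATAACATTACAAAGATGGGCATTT
A_55_P2031636: agaaatgtaaatggaataagaggtcagctg
A_55_P2085974: ctcctgattgtatttgaagtggttattcaa
A_55_P2085979: aaccattaaaaacatgccaccaagaccttc

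Probe A_55_P2085984 read 1.86, 1.72, 1.53 and 1.46 with EXO-Post BSA and 0.64, 0.15 and 0.32 with EXO-Post Palm, here and throughout in the order of the replicate numbers. All 3 EXO-Post Palm arrays were lower than every EXO-Post BSA array, and the gap between the groups was wider than the spread within either. The means were 1.64 ± 0.19 (SD, n = 4) and 0.37 ± 0.25 (SD, n = 3), a fold change of -1.27 (SE 0.215, 95% interval -1.76 to -0.78, limma adjusted p = 0.0491). A two-sided exact permutation test over all 35 splits of 7 arrays into 4 and 3 gave p = 0.0286, the smallest it can give, not adjusted over probes. This value goes closely with groups that do not overlap, as at 5.87% of all tested probes in this direction, and is not separate evidence. The difference was -1.15 within slide 1 and -1.14 within slide 3. The call was lost when any 1 of the 7 arrays was left out (limma adjusted p 0.0828 to 0.196), in fits with fewer arrays. The fold change in those fits was -1.41 to -1.16. With slide as a block, a fit that gives no weight to the 2 arrays alone on their slides, the limma adjusted p was 0.158. It also fell outside the threshold with each of 3 other scalings, with normexp or subtraction followed by quantile normalisation, and in the authors' processed values (limma adjusted p 0.0530 to 0.102).

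The overlapping probe A_55_P2031631 read 2.71, 2.62, 2.62 and 2.51 with EXO-Post BSA and 1.45, 1.65 and 0.98 with EXO-Post Palm. The groups again did not overlap, with means of 2.62 ± 0.08 (SD, n = 4) and 1.36 ± 0.34 (SD, n = 3). Its fold change of -1.26 (SE 0.219, 95% interval -1.75 to -0.76) was as large as that of its neighbour, with a limma adjusted p of 0.0564 on the other side of the threshold. With all 7 arrays it passed in 7 of the alternatives that adjust the p, the authors' processed values, array weights and a random slide block among them (limma adjusted p 0.0201 to 0.0462), and it passed without EXO-Post Palm replicate 2 (-1.40, limma adjusted p = 0.0413).

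The 3 remaining Igf1 probes lie elsewhere on the transcripts and did not pass. A_55_P2031636 read -0.70, -0.83, -0.51 and -0.52 with EXO-Post BSA and -1.95, -0.84 and -2.36 with EXO-Post Palm. EXO-Post Palm replicate 2 was level with the lowest EXO-Post BSA array while the other two EXO-Post Palm arrays were more than 1 log2 unit below it, and the fold change was -1.08 (SE 0.344, limma adjusted p = 0.328). Without that array it was -1.51 and passed (limma adjusted p = 0.0342). A_55_P2085974 read 2.31, 2.16, 1.71 and 2.51 with EXO-Post BSA and 1.27, 2.60 and 0.21 with EXO-Post Palm, where replicate 2 was above every EXO-Post BSA array (fold change -0.81, SE 0.497, limma adjusted p = 0.628). A_55_P2085979, on the other transcript, read 0.44, 0.25, 0.21 and 0.14 with EXO-Post BSA and -0.47, 0.33 and -0.37 with EXO-Post Palm (fold change -0.43, SE 0.245, limma adjusted p = 0.606). In all 3, EXO-Post Palm replicates 1 and 3 were below every EXO-Post BSA array and replicate 2 was level with the lowest or above it. At the overlapping pair of probes replicate 2 was clearly below every EXO-Post BSA array.

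The difference between probes was itself compared within arrays, against A_55_P2031631, the brightest of the 5, a choice made after the values were seen. The fold change of A_55_P2085979 was smaller by 0.83 (exact permutation test, two-sided, p = 0.0286, the smallest possible, and 0.114 after adjustment over the 4 probes compared). The other 3 probes differed from it by 0.44 (A_55_P2085974), 0.18 (A_55_P2031636) and -0.02 (A_55_P2085984), with exact permutation p of 0.457, 0.657 and 0.971. Even the smallest possible p gave 0.114 after adjustment, so this comparison cannot decide whether 1 probe alone differs from the brightest. The within-array difference of A_55_P2085979 from it was -2.41 to -2.27 with EXO-Post BSA and -1.93 to -1.32 with EXO-Post Palm, without overlap.

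**Figure D2:**
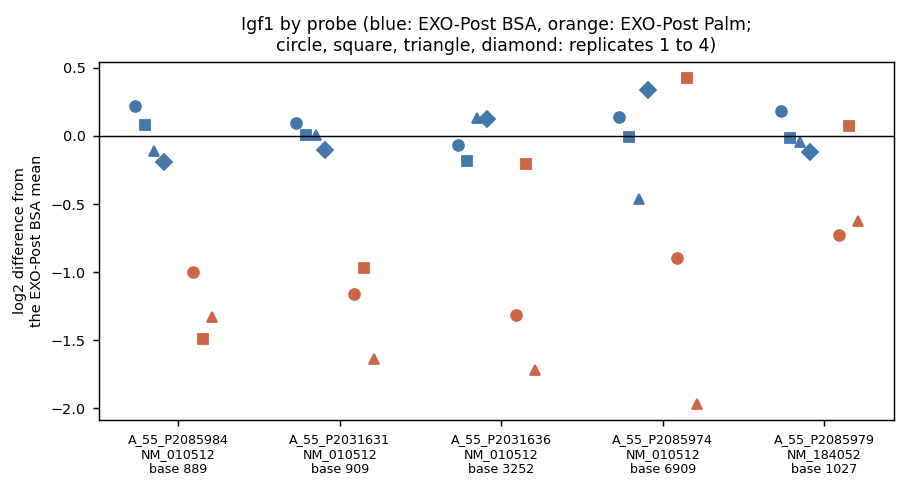
Difference of each array from the EXO-Post BSA mean of the same probe (y axis, log2) for the 5 Igf1 probes (x axis, with transcript and first base). The 3 EXO-Post Palm arrays are all lower at the probes at bases 889 and 909, and EXO-Post Palm replicate 2, the orange square, is near or above the EXO-Post BSA mean at the other 3.

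Igf2, the ligand known for its rise in differentiating myoblasts, is read by 1 probe on the reverse strand. Its first 30 bases, at chr7:149839691-149839720 of mm9, are shown because Igf2 has several transcripts and the value belongs to those that hold this stretch.
A_55_P2118173: atcaaattatgtggtaattctgcaatgtag
It read -1.56, -1.56, -1.60 and -1.88 on the EXO-Post BSA arrays and -2.88, -1.98 and -3.60 on the EXO-Post Palm arrays. All 7 arrays were well above background and the groups did not overlap, but EXO-Post Palm replicate 2 was just below the lowest EXO-Post BSA array. The means were -1.65 ± 0.15 (SD, n = 4) and -2.82 ± 0.81 (SD, n = 3), with a fold change of -1.17 (SE 0.352, 95% interval -1.97 to -0.37). This did not pass over all probes (limma adjusted p = 0.293), and the exact permutation p, not adjusted, was the smallest possible, 0.0286. The difference was -1.32 within slide 1 and -1.72 within slide 3, and leaving out EXO-Post Palm replicate 2 gave -1.59, which passed (limma adjusted p = 0.0448). Its processed signals were low, 392, 306, 281 and 197 with EXO-Post BSA and 220, 164 and 45.3 with EXO-Post Palm. The fold change of Igf2 was smaller with normexp (-0.75) or subtraction and a floor (-0.86), both followed by quantile normalisation. In the authors' processed values it was -0.94.

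Both receptors had fold changes above 0 that did not pass. Igf1r, the signalling receptor of both ligands, read 1.34, 0.51, 1.42 and 1.00 with EXO-Post BSA and 1.31, 1.60 and 1.60 with EXO-Post Palm. The groups overlapped, the spread of the EXO-Post BSA arrays (SD 0.41, n = 4) was close to the fold change of 0.44 (SE 0.263, 95% interval -0.16 to 1.04, limma adjusted p = 0.624), and the exact permutation p was 0.171. Igf2r, the clearance receptor that also binds mannose 6-phosphate, is printed as 10 spots an array, of which 9 or 10 were usable. Their means were 0.34, -0.22, -0.08 and 0.25 with EXO-Post BSA and 0.12, 0.27 and 0.69 with EXO-Post Palm, with an SD between spots of one array of 0.0956 to 0.385. The fold change was 0.29 (SE 0.239, 95% interval -0.26 to 0.83, limma adjusted p = 0.729). These intervals leave room for a rise of up to 1.04 for Igf1r and 0.83 for Igf2r, and for falls of 0.16 and 0.26.

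Among the binding proteins, Igfbp3, the main carrier of IGFs in the circulation, was called lower with EXO-Post Palm. Its probe lies on the reverse strand, and the 30 bases at chr11:7106624-7106653 of mm9 are shown because this is the probe with the lowest p of all those of the axis.
A_52_P253179: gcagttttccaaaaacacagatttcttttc
Its processed signals were low on every array, 229, 154, 228 and 179 with EXO-Post BSA and 71.2, 56.8 and 20.5 with EXO-Post Palm, the last not well above background. The normalised values were -2.34, -2.55, -1.90 and -2.02 with EXO-Post BSA and -4.51, -3.51 and -4.74 with EXO-Post Palm. Every EXO-Post Palm array was lower than every EXO-Post BSA array, and EXO-Post Palm replicate 2 was the nearest to them. The means were -2.20 ± 0.30 (SD, n = 4) and -4.25 ± 0.65 (SD, n = 3), and the fold change was -2.05 (SE 0.326, 95% interval -2.79 to -1.31, limma adjusted p = 0.0414, exact permutation p = 0.0286). Since only 2 of 3 EXO-Post Palm arrays were above background, the probe entered the test through its EXO-Post BSA values. The difference was -2.06 within slide 1 and -2.72 within slide 3. With slide as a block, without weight for the 2 arrays alone on their slides, it was -2.35 and passed (limma adjusted p = 0.0327). When 1 array at a time was left out it passed once in 7, without EXO-Post Palm replicate 2 (-2.42, limma adjusted p = 0.0122), and in the other six the limma adjusted p was 0.0832 to 0.155. The fold change was smaller, though called, from the median signal with quantile normalisation: -1.24 with normexp and an offset of 50 (limma adjusted p = 0.0496) and -1.50 with background subtracted and a floor of 50 (limma adjusted p = 0.0326).

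Igfbp2, a binding protein with an integrin-binding motif, is read by 2 probes that moved to the same extent without passing. A_55_P2056729 read 2.08, 2.32, 2.20 and 2.68 with EXO-Post BSA and 1.63, 1.55 and 1.52 with EXO-Post Palm (fold change -0.75, SE 0.212, limma adjusted p = 0.247, exact permutation p = 0.0286). A_66_P135391 read 2.61, 2.70, 1.98 and 2.06 with EXO-Post BSA and 1.88, 1.48 and 1.37 with EXO-Post Palm (fold change -0.76, SE 0.261, limma adjusted p = 0.375, exact permutation p = 0.0571). At both probes the groups did not overlap, and here EXO-Post Palm replicate 2 lay between the other two. Within slides 1 and 3 the differences were -0.57 and -1.16 at the first probe and -0.77 and -0.69 at the second.

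Igfbp4, an inhibitory binding protein that the protease PAPP-A cleaves, was higher with EXO-Post Palm on average. It read -1.57, -0.88, -2.32 and -1.36 with EXO-Post BSA and 0.83, -1.05 and 0.36 with EXO-Post Palm. Replicates 1 and 3 of EXO-Post Palm were higher than every EXO-Post BSA array, while replicate 2 was below EXO-Post BSA replicate 2, so the groups overlapped. The fold change of 1.58 (SE 0.481, 95% interval 0.49 to 2.67) did not pass (limma adjusted p = 0.297, exact permutation p = 0.0571). It was 2.05 within slide 1 and 1.72 within slide 3, and the limma adjusted p with slide as a block was 0.0617 for a difference of 1.91.

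Igfbp5, the binding protein most tied to myogenic differentiation, and Igfbp6, which prefers IGF2, were bright on all arrays. Igfbp5 read 4.95, 4.50, 4.78 and 4.60 with EXO-Post BSA and 4.51, 4.84 and 4.19 with EXO-Post Palm, and the overlapping groups gave a fold change of -0.19 (SE 0.231, 95% interval -0.72 to 0.33, limma adjusted p = 0.821). Igfbp6 read 5.10, 4.98, 4.57 and 4.76 with EXO-Post BSA and 4.31, 4.14 and 4.74 with EXO-Post Palm. Its fold change was -0.46 (SE 0.235, 95% interval -0.99 to 0.08, limma adjusted p = 0.571), and EXO-Post Palm replicate 3 lay among the EXO-Post BSA arrays. Igfbp7, a related protein with low affinity for IGFs, was well above background on 2 of 4 EXO-Post BSA and 2 of 3 EXO-Post Palm arrays and was not tested. Its values of -3.05, -3.07, -4.78 and -4.30 against -3.32, -6.01 and -4.20 spread more within the groups than between them (difference -0.71, exact permutation p = 0.457).

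**Figure D3:**
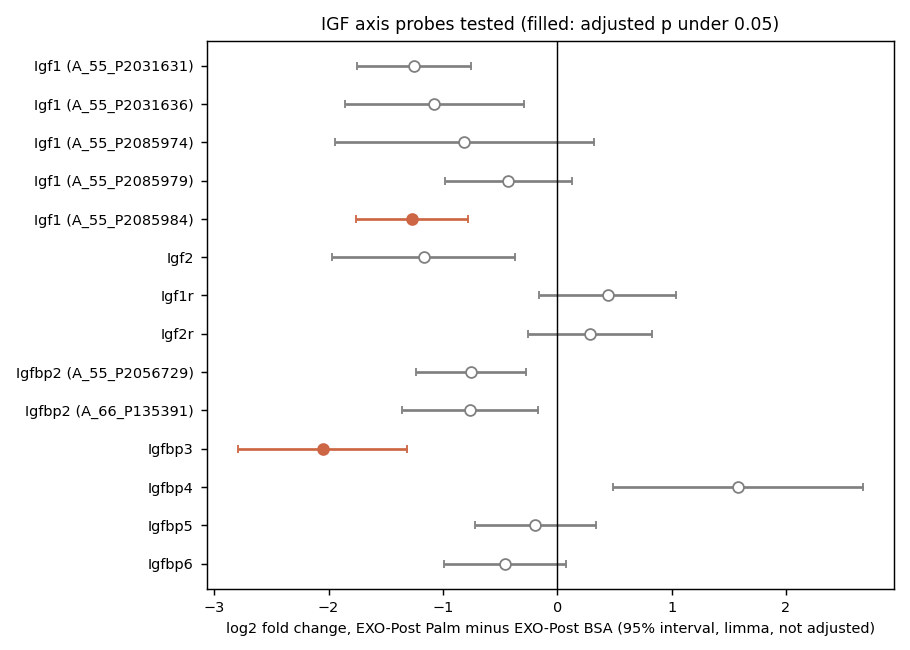
Fold change of the 14 tested IGF axis probes (x axis, log2, EXO-Post Palm minus EXO-Post BSA) with the 95% interval of limma, not adjusted for the number of probes; filled points have an adjusted p under 0.05. Igfbp3 at -2.05 and the Igf1 probe A_55_P2085984 at -1.27 are filled, and Igfbp4 at 1.58 is farthest to the right.

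EXO-Post Palm replicate 2 was the array of its group most often nearest to the EXO-Post BSA mean. This held at 8 of the 14 tested probes, several of them of Igf1, and for replicate 1 at 5 and replicate 3 at 1. The share over all tested probes was not computed, so the count does not tell whether the axis differs from other genes in this. The correlation of replicate 2 with EXO-Post Palm replicates 1 and 3 was 0.955 and 0.948, and theirs with each other was 0.969. Without replicate 2, the called probes of the axis were 4: Igfbp3, Igf2 and the Igf1 probes A_55_P2031631 and A_55_P2031636. All were lower with EXO-Post Palm, and the calls over all probes went from 115 to 202 without replicate 2. The cause was not tested, and slide and array cannot be told apart for it. With EXO-Post BSA replicate 1 left out no probe was called over the whole array.

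**Figure D4:**
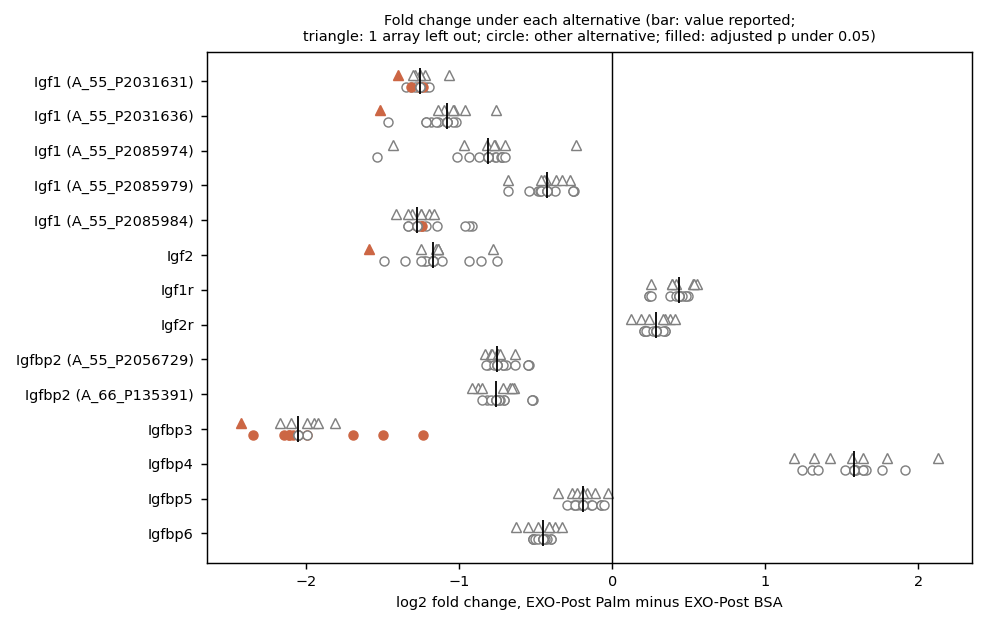
Fold change of the 14 tested probes (x axis, log2, EXO-Post Palm minus EXO-Post BSA) as reported (bar), with 1 array left out (triangles) and under the other processing alternatives (circles), filled where the adjusted p was under 0.05. No value crosses 0, Igfbp3 spans -2.42 to -1.24, and the A_55_P2085974 probe of Igf1 spans -1.54 to -0.24.

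The other genes of the axis were taken from a list of 28, of which 20 had a tested probe. With the brightest tested probe of each gene, none was called by limma. An unadjusted p under 0.05 was found for 2 of the 20, Pappa and Pappa2, as for 10% of all tested probes. The methods' t-test called 0 after adjustment and 1 before it. The median fold change was -0.18, 14 genes were lower and 6 higher, and the groups did not overlap for 1 gene in each direction, Irs2 (lower) and Pappa2 (higher), where 5.87% of all tested probes lay apart with EXO-Post Palm lower and 5.39% with EXO-Post Palm higher. The counts by unadjusted p and by groups without overlap are near the background. Of the 20 genes 70% were lower, against 52.7% of all tested probes, whose median was -0.02, and this difference was not tested. The proteases Pappa and Pappa2 release IGFs by cutting binding proteins, Igfbp4 and Igfbp5 among their targets, and neither was called. Pappa2 read -3.21, -2.34, -2.61 and -2.84 with EXO-Post BSA and -1.40, -1.95 and -1.64 with EXO-Post Palm (fold change 1.09, SE 0.263, limma adjusted p = 0.171, exact permutation p = 0.0286). Pappa read -4.05, -3.06, -3.96 and -4.15 with EXO-Post BSA and -4.94, -4.13 and -5.09 with EXO-Post Palm, where 1 of 3 arrays was well above background, so that it entered the test through its EXO-Post BSA values (fold change -0.91, SE 0.343, limma adjusted p = 0.427).

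Downstream of the receptor, the adaptor Irs2 read 0.93, 0.91, 1.08 and 1.01 with EXO-Post BSA and 0.67, -1.04 and 0.80 with EXO-Post Palm. Here EXO-Post Palm replicate 2 was the lowest array by far, and the fold change of -0.84 (SE 0.417, limma adjusted p = 0.555) stood at -0.25 within slide 1 and -0.21 within slide 3. Among the tested genes of the remaining subgroups, the one with the largest fold change in size was H19, the non-coding RNA that shares an imprinted locus with Igf2 (-0.20, limma adjusted p = 0.833), M6pr, the other mannose 6-phosphate receptor (-0.05, limma adjusted p = 0.956), and Stat5a, a transcription factor activated by the growth hormone receptor (-0.35, limma adjusted p = 0.755). The carrier partners Igfbp1, Igfals and Igfbpl1 were well above background on 0 arrays. Stc1, which inhibits PAPP-A, was named after its values were seen: it was well above background on 0 of 4 EXO-Post BSA and 2 of 3 EXO-Post Palm arrays. Its EXO-Post Palm mean was 2.95-fold above a floor set for EXO-Post BSA. The floor was the lowest signal among probes well above background on each EXO-Post BSA array, or the probe's own signal if higher. The mean includes the EXO-Post Palm array that was not well above background, so 2.95 is not a strict lower limit. Stc1 was not tested.

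**Figure D5:**
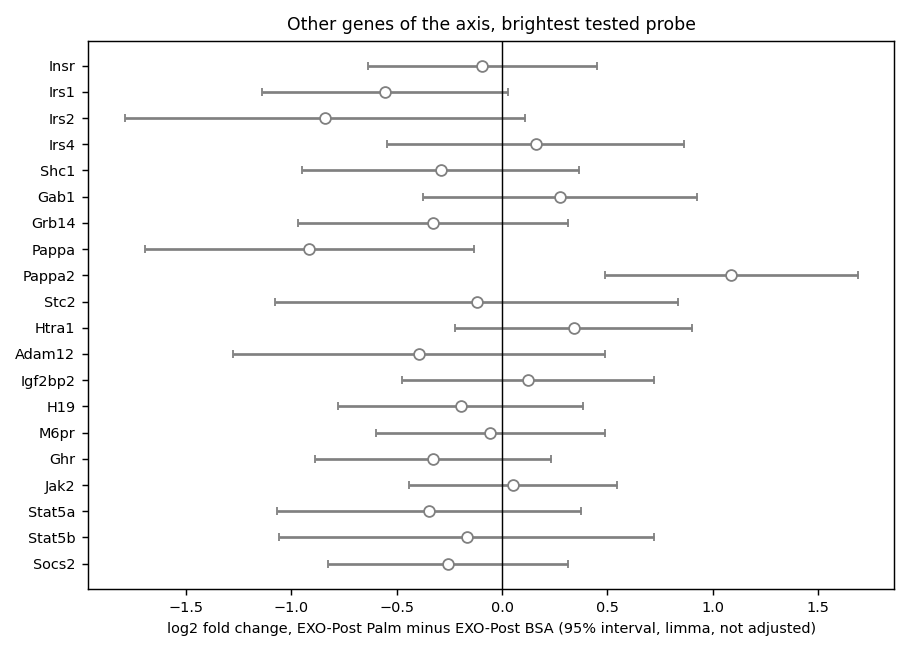
Fold change (x axis, log2, EXO-Post Palm minus EXO-Post BSA) of the 20 tested genes of the related list, by the brightest tested probe, with the 95% interval of limma, not adjusted. Pappa2 at 1.09 and Pappa at -0.91 have intervals that leave out 0, and no gene was called after adjustment.

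The patterns most like those of the 3 genes with the lowest p were sought over the 7 arrays, by the root mean square difference of centred log2 values among 15561 tested probes of other named genes. Among the closest to Igfbp3 were Tagln, an actin-binding protein of smooth muscle (difference 0.193, fold change -1.88, limma adjusted p = 0.0424), and Lrrc32 (0.219, fold change -1.76, limma adjusted p = 0.0436). Closest to Igf1 at A_55_P2085984 were N6amt1 (0.178), Colec10 (0.181) and Lama2, a laminin chain of the muscle basement membrane (0.184). Colec10 was called (fold change -1.34, limma adjusted p = 0.0307), and N6amt1 (fold change -0.99, limma adjusted p = 0.121) and Lama2 (limma adjusted p = 0.204) were not. Closest to Igfbp2 at A_55_P2056729 were Phc1 (0.114), Lrrc17 (0.115) and Pabpc4 (0.117), with fold changes of -0.68, -0.91 and -0.81 and limma adjusted p of 0.299, 0.194 and 0.160. With 7 arrays such likeness is a description of these arrays. The probes were picked by that likeness to members with a low p, so similar fold changes follow from the choice. Their fold changes and limma adjusted p are therefore not separate evidence.

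The promoters of Igf1 and Igfbp3 are shown because these are the genes that were called. They come from RefSeq on GRCm38.p6 and hold the 250 bases before the start site, at chr10:87860861-87861110 (forward strand) and chr11:7213924-7214173 (reverse strand). The capitals mark an E-box (CANNTG, the motif that myogenic factors can bind) in each, and in Igf1 also ATTGG, which is CCAAT on the other strand.
Igf1: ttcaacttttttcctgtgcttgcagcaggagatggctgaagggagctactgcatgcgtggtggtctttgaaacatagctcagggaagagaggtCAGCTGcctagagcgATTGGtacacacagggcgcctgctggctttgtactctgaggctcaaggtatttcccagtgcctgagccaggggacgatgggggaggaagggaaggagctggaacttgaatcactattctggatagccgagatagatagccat
Igfbp3: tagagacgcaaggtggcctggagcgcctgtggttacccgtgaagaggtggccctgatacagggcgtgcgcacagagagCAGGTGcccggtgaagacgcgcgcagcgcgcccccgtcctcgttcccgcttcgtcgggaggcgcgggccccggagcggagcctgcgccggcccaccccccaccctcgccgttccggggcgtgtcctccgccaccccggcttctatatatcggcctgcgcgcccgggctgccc
All 10 genes matched, with 14 windows. An E-box lay in 9 of the 14, and in 66.2% of the 32851 windows of the same length. CCAAT lay in 3 of 14 (33.9% of all), GGGCGG in 6 (32.7%), TATAAA in 2 (12.4%) and a CArG box, the site of serum response factor, in 1 window of Igf2 (1.47%), each searched on both strands, and overlaps between the motifs were not examined. A match is a description of the letters, not a site, and no measurement here bears on binding.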

How the data were processed

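For each array the authors deposited the scanner output, in which the processed signal is a background-subtracted intensity that has not been normalised between arrays. Feature Extraction 10.7.3.1 wrote 6 of the files and 11.5.1.1 that of EXO-Post BSA replicate 3, per the file headers, whereas the submitters' processing notes name 9.1. A table of the authors' processed log2 values was also deposited, was joined by row order (rank correlation 0.994 to 0.999 with each array's median intensity) and served as an alternative. Its centring is equal on all arrays (medians 6.74), and its processing settings are not given in the sources used here. Agi4x44PreProcess and limma are the packages named in the paper.

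Here log2 of the processed signal minus log2 of its 75th percentile over an array's 43020 non-control spots was taken, without spots marked as uneven or as outliers. Spots of 1 probe were averaged. Probes were tested where either group had 75% or more of its arrays well above background, by limma 3.58.1 (R 4.3.3) with Benjamini-Hochberg adjustment over all of them, and single probes also with two-sided exact permutation tests over 35 splits. The code was tested on simulated data. Replicate numbers were not taken as pairs (r of same-numbered deviations 0.12, -0.15 and -0.15). The labels do not say whether same-numbered arrays share a culture, and these values cannot exclude it. Group came from the labels. The members, the related genes and the marker lists were chosen with earlier results of these data known. Named were every probe of the 10 genes, the tested gene with the largest fold change in size in each subgroup of the related list, and the 3 nearest patterns of the 3 genes with the lowest p, of which 1 is not reported here. Of the osteoblast markers Bglap had no probe by that name. The lists for adipocytes (summed level 0.131 to 0.233 with EXO-Post BSA, 0.125 to 0.169 with EXO-Post Palm), osteoblasts (0.0984 to 0.166, and 0.165 to 0.210), macrophages (1.18 to 1.71, and 1.40 to 2.52) and endothelial cells (4.27 to 5.46, and 3.11 to 6.48) held 0 called genes. Of these lists only 1 adipocyte, 1 osteoblast, 2 macrophage and 3 endothelial genes were tested. With 0.533% of all tested probes called, 0 calls among so few genes says little. The macrophage and endothelial levels rest mainly on Csf1r (EXO-Post Palm mean 0.86, EXO-Post BSA mean 0.41) and Kdr (2.12 and 2.20, same order). All other macrophage and endothelial genes had group means of -2.95 or lower. For normexp (offset 50) and subtraction (floor 50), both followed by quantile normalisation, the median signal was used on all arrays. The reason was that the file of EXO-Post BSA replicate 3 gives no mean signal. The 23 alternatives also cover other scalings, filters, slide and replicate blocks, weights and each array left out. Sequences are those of the array design and of the RefSeq promoter table.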

Additional observations from a re-analysis of the deposited data

Results flagged for a closer look

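EXO-Post BSA replicate 4 lay apart from the other arrays of its group at Igf2, at -1.88 where the other three read -1.60 to -1.56. The gap divided by the range of the group exceeded Dixon's critical value for 4 samples, 0.829. The 14 tested probes were each examined in the EXO-Post BSA group, of which chance marks about 1 in 20. All EXO-Post Palm arrays were lower still at Igf2.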

How the results depend on the processing

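Of 322 recomputed fold changes of single probes, 0 reversed, 274 kept their side of the threshold, 26 no longer passed and 22 passed where they had not. Over all probes 115 were called, against 181 with slide as a random block, 180 with array weights, 173 with a trended and robust fit, 0 with no filter on low values and 0 by Student's t-test after Benjamini-Hochberg adjustment (2107 before it, and 2169 by limma without adjustment). With the replicate block, for which the labels state no pairing, 0 were called, and leaving out 1 array gave 0 to 202. The 2 probes of the axis called became 1 with median scaling, quantile normalisation, a percentile over probes above background on all arrays, or slide as a block. They became 0 with no filter, with the replicate block and by the t-test after adjustment, 8 by the t-test and by limma without adjustment, and 0 to 4 with 1 array left out, 4 being without EXO-Post Palm replicate 2. The related list went from 0 to 1 by the unadjusted t-test and to 2 by limma without adjustment. Igf1 at A_55_P2085984 no longer passed with median scaling (-1.33), quantile normalisation (-1.24), the percentile over probes above background (-1.22), normexp and quantile (-0.92), subtraction with a floor and quantile (-0.94), the authors' values (-0.96), no filter (-1.27), slide as a block (-1.15), the replicate block (-1.34), the t-test after adjustment (-1.27) or any 1 array left out (-1.41 to -1.16), with adjusted p from 0.0530 to 0.287. Igfbp3 no longer passed with no filter (-2.05, adjusted p = 0.193), the replicate block (-1.99, adjusted p = 0.239), the t-test after adjustment (-2.05, adjusted p = 0.237) and in 6 of 7 models with 1 array left out (-2.42 to -1.81 over the 7). It passed at -1.24 with normexp and at -1.50 with subtraction and a floor of 50, both followed by quantile normalisation, and was not tested where all arrays had to be above background. Without a filter more probes were tested, and leaving out an array leaves fewer arrays; the cause of the other changes was not tested. Scaling moved the median fold change of all probes by less than 0.1. Low signal limits Igfbp3, Igfbp7 and Pappa, which were not above background on every array. Igf2 was well above background on every array, but its signals were low too and its fold change was smaller with normexp or a floor.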
